A study of Mus musculus with 4 samples.

Results

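The unfolded protein response and the genes of the secretory machinery were followed in B cells of mouse bone marrow. The group held 36 genes chosen by symbol, and all 36 were found among the 24411 gene symbols of each deposited table. It was put together by function: 13 chaperones and folding enzymes of the endoplasmic reticulum (ER), 4 genes for the stress sensors and Xbp1, 7 genes of ER-associated degradation, 6 genes of the integrated stress response, and 6 secretory and plasma cell genes. All 36 passed the filter on low values, as did 12617 genes in all. The study asked how raised Arid5b, which encodes a transcriptional coregulator that binds AT-rich DNA, affects B cell development. RNA was sequenced from tibia and femur marrow cells that carried B220, the B lineage form of CD45, in 2 groups with 2 libraries each. The first group is labelled Arid5b overexpression, and the second is wildtype. The promoter that drives Arid5b, and the strain and age of the mice, are not given in the sources used here, and nothing in the labels says whether libraries of a group came from separate mice, so p-values measure the spread between these libraries only.

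The ER folds and modifies secreted and membrane proteins, and cells that secrete antibody carry a large load of them. When unfolded proteins build up, the sensors IRE1 (Ern1), PERK (Eif2ak3) and ATF6 signal to the nucleus: IRE1 splices Xbp1 mRNA, ATF6 is cut to release a transcription factor, and PERK slows translation and raises ATF4. Spliced XBP1 and ATF6 raise chaperones and degradation factors, while ATF4 raises genes of amino acid supply and, through Ddit3 (CHOP), of cell death. In the B lineage this system is best known from plasma cells, which need Xbp1 and the regulator Blimp-1 (Prdm1). Reads were counted per gene, so spliced and unspliced Xbp1 were not separated.

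The libraries held 15281839 and 20356404 reads in the overexpression-labelled group and 14196665 to 20146878 in wildtype. Arid5b stood at 3804 and 136 CPM (the usual read count scaled to the total of its library) in overexpression-labelled libraries 1 and 2, against 149 and 174 CPM in the wildtype libraries. It thus goes against the label of library 2, and the libraries are called overexpression-labelled for that reason. All 10 markers of the B lineage were detected in all 4 libraries, with summed levels of 3595 and 5884 CPM in the overexpression-labelled libraries and 5236 and 5950 CPM in wildtype. In overexpression-labelled library 1, 4 of these 10 rose and 6 fell, where 26.8% of all tested genes rose and 34.4% fell. That library stood apart in other markers too. Its 8 mitotic genes all rose and summed to 2479 CPM, against 166 CPM in overexpression-labelled library 2 and 105 and 112 CPM in wildtype. Its 11 markers of plasmacytoid dendritic cells, which can carry B220 and are rich in ER, summed to 203 CPM, against 632 CPM in library 2 and 775 and 632 CPM in wildtype; 10 of the 11 fell, and Klk1 and Cd300c had no reads. The 12 neutrophil markers summed to 145 and 1637 CPM in overexpression-labelled libraries 1 and 2 and to 7.15 and 110 CPM in wildtype. The 10 that were tested all rose in library 2, where 0.769% of all tested genes did. T and NK cell markers summed to 2.49 and 27.1 CPM in the overexpression-labelled libraries and to 55.3 and 55.4 CPM in wildtype, and the 7 erythroid markers summed to at most 5.5 CPM in any library, mostly from Alas2. The 4 globin genes among them had 0 reads in all 4 libraries, and whether reads of globin genes were counted is not given in the sources used here. Wildtype library 1 had 24 reads of the X-inactivation transcript Xist and 3260 of the Y-linked Ddx3y, while the other 3 libraries had at least 68540 of Xist and at most 1 of Ddx3y. In such bulk samples, a smaller share of a cell type and less RNA per cell cannot be told apart.

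**Figure D1:**
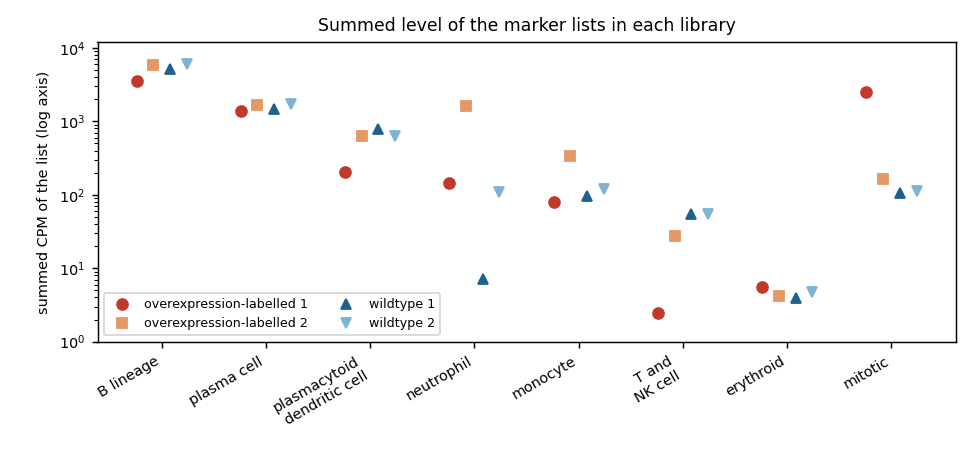
Summed CPM (log axis) of the cell marker lists in each of the 4 libraries, 1 point per library. The mitotic list stood at 2479 CPM in overexpression-labelled library 1 and at 105 to 166 CPM in the others; the neutrophil list was highest in overexpression-labelled library 2, at 1637 CPM.

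Promoter sequences are shown first, because members that share an element are met again in the results. RefSeq windows (GRCm38.p6, 250 bases before to 50 after the start site) matched 30 of the 36 genes by symbol, with 2 windows for Derl2 and Fkbp11. Atf6, Derl1, Hyou1, Manf, Mzb1 and Sec11c had no window in the table. The ER stress element, CCAAT and CCACG with 9 bases between them, is bound by ATF6 with NF-Y; on either strand it was found in windows of 9 of the 30 genes, and in 0.119% of all 32851 windows. They were Calr, Canx, Creld2, Derl3, Dnajc3, Hsp90b1, Hspa5, Pdia6 and Syvn1. Its second form, ATTGG and CCACG with 1 base between them, was found in Herpud1 and in 0.0365% of all windows. The core TGATGNAA of the element that ATF4 binds was found in Asns, Chac1, Trib3 and Herpud1, 13.3% of the 30, and in 3.97% of all windows. The core GACGTGG of the XBP1 and ATF6 element was found in Pdia6 and in 2.42% of all windows. The motifs do not overlap each other in these windows. A match describes letters in the window and does not show that a factor was bound there. The stretches below run 5′ to 3′ along the gene, with the matches in capitals; a match on the other strand reads as the reverse complement. They are the stretches of Hspa5 (chr2:34772005-34772063, plus strand), Hsp90b1 with a pair of matches (chr10:86705513-86705676, minus strand), Creld2 (chr15:88819500-88819558, plus strand) and Syvn1 (chr19:6046512-6046570, plus strand), which were high in overexpression-labelled library 1, and of Calr (chr8:84847055-84847113, minus strand), which was not.
Hspa5: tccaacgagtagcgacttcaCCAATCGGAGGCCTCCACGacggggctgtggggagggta
Hsp90b1: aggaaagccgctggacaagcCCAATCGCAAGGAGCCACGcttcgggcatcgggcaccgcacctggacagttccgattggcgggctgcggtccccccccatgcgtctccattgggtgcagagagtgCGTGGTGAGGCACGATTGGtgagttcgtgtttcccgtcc
Creld2: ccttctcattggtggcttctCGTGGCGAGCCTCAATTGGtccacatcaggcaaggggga
Syvn1: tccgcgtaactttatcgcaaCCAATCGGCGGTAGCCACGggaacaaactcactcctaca
Calr: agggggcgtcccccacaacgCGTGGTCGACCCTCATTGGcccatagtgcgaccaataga

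Carriers of the ATF4 element are shown in the same way, since Chac1, Trib3 and Asns were low together in the results. They are Herpud1 (chr8:94386297-94386407, plus strand), which also holds the second form of the ER stress element, Chac1 (chr2:119351029-119351076, plus strand), Trib3 (chr2:152344029-152344056, minus strand) and Asns (chr6:7693215-7693242, minus strand). The match of Trib3 lies 14 to 21 bases after the RefSeq start site, and that of Asns 16 to 23 bases before it.
Herpud1: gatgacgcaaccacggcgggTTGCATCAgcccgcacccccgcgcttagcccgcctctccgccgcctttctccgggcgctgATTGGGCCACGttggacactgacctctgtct
Chac1: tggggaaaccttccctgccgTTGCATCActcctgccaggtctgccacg
Trib3: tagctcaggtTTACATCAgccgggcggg
Asns: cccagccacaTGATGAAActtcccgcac

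With both libraries of each group together, no member passed the test. By limma on the deposited log2 values, 0 of 36 members and 0 of 12617 genes changed (0.00%). An unadjusted p under 0.05 was found for 3 members, Chac1, Xbp1 and Pdia4, and for 280 genes, 2.22% of those tested; limma-voom also called 0 genes and gave an unadjusted p under 0.05 to 3 members. Chac1 averaged 6.92 ± 0.986 in the overexpression-labelled group and 9.38 ± 0.124 in wildtype on that log2 scale (SD, n = 2 each; difference -2.46, limma adjusted p = 0.726). Xbp1 averaged 11.29 ± 0.131 and 12.15 ± 0.0653 (SD, n = 2 each; difference -0.86, limma adjusted p = 0.726). Pdia4 averaged 12.04 ± 0.277 and 11.22 ± 0.228 (SD, n = 2 each; difference 0.81, limma adjusted p = 0.726). The groups did not overlap in 19 of 36 members, 52.8%, where 42.6% of all tested genes did not overlap. Both overexpression-labelled libraries were above both wildtype libraries in 7 members, 19.4%, against 19.6% of all genes, and below them in 12, 33.3%, against 23.0% of all genes. The 12 lower genes were Dnajb9, Ern1, Atf6, Eif2ak3, Xbp1, Edem1, Derl1, Atf4, Ddit3, Chac1, Trib3 and Asns, and the 7 higher ones were Hyou1, Dnajc3, Pdia4, Creld2, Sec61b, Sec11c and Mzb1. With library totals without the ribosomal RNA precursor Rn45s as the scale, Sdf2l1 joined the higher genes, and the other scalings tried gave these same 19.

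Because the overexpression-labelled libraries differed from each other, each was also compared by itself with the 2 wildtype libraries. The lone library is then assumed to vary as the wildtype libraries do, and the test compares that library, not the genotype. In overexpression-labelled library 1, 29 of 36 members changed, where 61.2% of all tested genes did: 16 rose (44.4%, against 26.8% of all tested genes), 13 fell (36.1%, against 34.4%) and 7 did not pass. The median difference of the members was 0.134 log2 units and that of all tested genes -0.151; that of all tested genes moved to 0.017 with library totals without Rn45s, where the same 16 and 13 members passed. With no filter on low values, 6 of the 29 calls were left, Chac1, Sec61b, Derl1, Ddit3, Atf6 and Eif2ak3, and the calls over all genes came to 2642 of 17905 tested. In overexpression-labelled library 2, 1 member rose (2.78%, against 0.769% of all tested genes), 2 fell (5.56%, against 0.888%) and 33 did not pass. The 2 single-library comparisons share the wildtype libraries, so their values are given side by side.

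**Figure D2:**
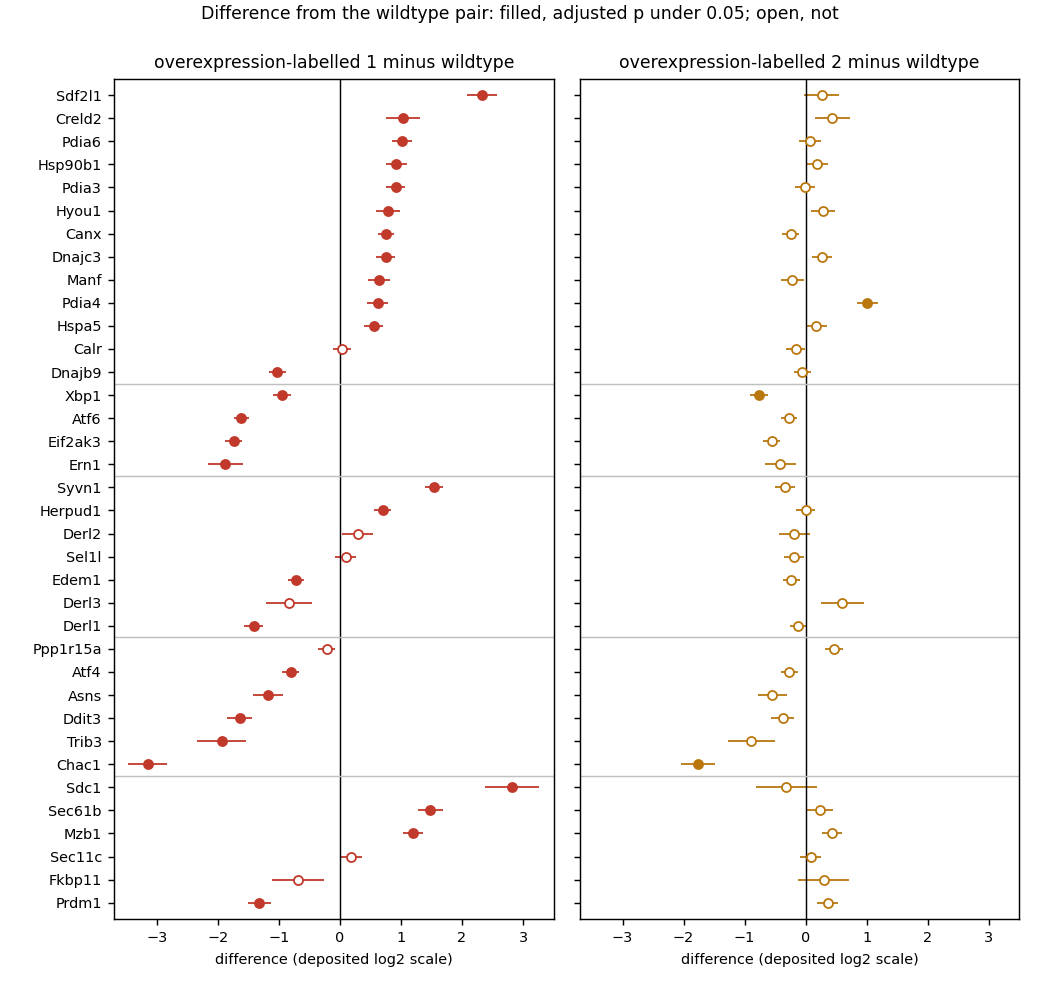
Difference from the mean of the 2 wildtype libraries on the deposited log2 scale, for overexpression-labelled library 1 (left) and library 2 (right), with bars of 1 standard error. Grey lines part the 5 groups of genes. Filled points passed the limma test at an adjusted p under 0.05; in library 2 these were Pdia4, Xbp1 and Chac1.

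ER chaperones and folding enzymes were higher in overexpression-labelled library 1 (median difference 0.758). There 11 of 13 rose (84.6%, against 26.8% of all tested genes), 1 fell (7.69%, against 34.4%) and Calr did not pass. In overexpression-labelled library 2, 1 of 13 rose (7.69%, against 0.769%), and the median difference was 0.176. Hspa5 (BiP), the main Hsp70 chaperone of the ER, had 2063 and 1425 CPM in the overexpression-labelled libraries and 1066 and 1520 CPM in wildtype. Library 2 thus lay inside the wildtype range, and library 1 above it (difference 0.55, SE 0.16, limma adjusted p = 0.00935). Hsp90b1 (GRP94), the ER form of Hsp90, had 1264 and 679 CPM in the overexpression-labelled libraries and 489 and 742 CPM in wildtype, again with only library 1 outside the wildtype range (0.92, SE 0.176, limma adjusted p = 5.48e-04). Per kilobase of exon these were the highest members in every library, with 488 and 337 RPKM (CPM per kilobase) for Hspa5 in the overexpression-labelled libraries and 252 and 360 RPKM in wildtype. Together they made up 48.2% and 41.7% of the summed CPM of the 36 genes in the overexpression-labelled libraries and 33.7% and 40.3% in wildtype.

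Sdf2l1, which works with BiP on misfolded proteins, showed the largest rise of the chaperone group in overexpression-labelled library 1. It had 1212 and 322 reads in the overexpression-labelled libraries and 211 and 231 reads in wildtype, or 79.3 and 15.8 CPM against 10.5 and 16.3 CPM. Normalised reads of library 1 were 5.37-fold those of the wildtype mean (2.33, SE 0.248, limma adjusted p = 3.32e-06), and those of library 2 were 1.20-fold (0.26, limma adjusted p = 0.698). The oxidoreductase Pdia6 had 126 and 57.7 CPM in the overexpression-labelled libraries and 49.9 and 61.5 CPM in wildtype, and Pdia3 (ERp57), which acts on glycoproteins, had 352 and 165 CPM against 147 and 192 CPM. Both were high in library 1 (1.01 and 0.91) and within the wildtype range in library 2. Creld2, an ER stress-induced protein, had 30.04 and 17.3 CPM in the overexpression-labelled libraries and 9.68 and 16.1 CPM in wildtype (1.03 in library 1, limma adjusted p = 0.00636). Hyou1, a large Hsp70-like chaperone, had 77.7 and 48.8 CPM in the overexpression-labelled libraries and 34.6 and 46.6 CPM in wildtype, and Dnajc3, a BiP co-chaperone, had 130 and 83.5 CPM against 64.6 and 75.0 CPM. Both rose in library 1 (0.78 and 0.74), and in library 2 they stood just above wildtype without passing (0.28 and 0.27). Canx, the membrane lectin calnexin, had 572 and 254 CPM in the overexpression-labelled libraries and 279 and 333 CPM in wildtype, and Manf, a secreted ER stress protein, had 67.3 and 32.4 CPM against 35.6 and 41.2 CPM. They rose in library 1 (0.76 and 0.65) and lay below wildtype in library 2 without passing (-0.25 and -0.22). Calr, the soluble lectin calreticulin, had 256 and 200 CPM in the overexpression-labelled libraries and 197 and 259 CPM in wildtype, a difference of 0.03 in library 1 with a 95% interval of -0.29 to 0.36. Mitotic genes were high in library 1 with this group, and their part in it was not tested.

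Pdia4 and Dnajb9 went their own ways within the group. Pdia4 (ERp72), a disulfide isomerase, had 101 and 119 CPM in the overexpression-labelled libraries and 51.8 and 66.6 CPM in wildtype, so that both overexpression-labelled libraries were above both wildtype ones. It rose in library 1 (0.62, SE 0.175, limma adjusted p = 0.00804) and in library 2 (1.01, SE 0.175, limma adjusted p = 0.0148). Over all genes, 0.214% rose in both single-library comparisons. The call in library 2 was lost with no filter (limma adjusted p = 0.388), with log2 of reads plus 0.5 (0.0562) and with totals without Rn45s (0.0517). Neutrophil markers were highest in library 2, and their part in the Pdia4 value was not tested. Dnajb9 (ERdj4), a co-chaperone of BiP, had 78.1 and 138 CPM in the overexpression-labelled libraries and 139 and 152 CPM in wildtype. It fell by 1.03 in library 1 (SE 0.143, limma adjusted p = 3.89e-05), while most chaperones rose, and differed by -0.06 in library 2.

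**Figure D3:**
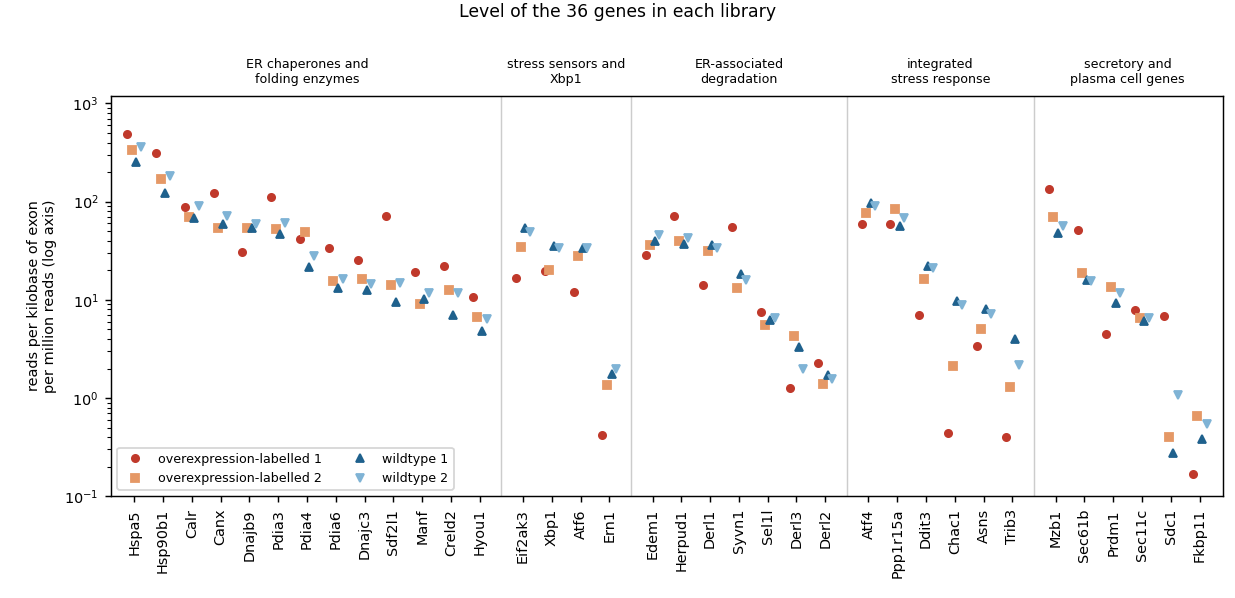
Level of each of the 36 genes in each library, in RPKM on a log axis, ordered by the wildtype mean within each group. Hspa5 and Hsp90b1 were highest in every library; Chac1, Trib3 and Ern1 show red points of library 1 well below the wildtype triangles, and Sdc1 and Sdf2l1 show them above.

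All 3 sensors and Xbp1 were lower in overexpression-labelled library 1, and their values in library 2 lay between those of library 1 and wildtype. Of the 4 genes, 4 fell in library 1 (median difference -1.682), where 34.4% of all tested genes fell. In library 2, 1 of the 4, Xbp1, fell (median -0.486), where 0.888% of all tested genes fell. Eif2ak3, the PERK kinase, had 101 and 208 CPM in the overexpression-labelled libraries and 324 and 296 CPM in wildtype. It fell by 1.75 in library 1 (SE 0.134, limma adjusted p = 1.33e-07), and its difference of -0.56 in library 2 missed the threshold (SE 0.134, limma adjusted p = 0.0639) but passed with library totals, a filter of 5 CPM and limma-voom (adjusted p = 0.0399, 0.0402 and 0.0117). Atf6 had 111 and 256 CPM in the overexpression-labelled libraries and 309 and 315 CPM in wildtype (-1.62 in library 1, limma adjusted p = 1.74e-07; -0.27 in library 2, limma adjusted p = 0.32). Ern1, the kinase and RNase IRE1, was the lowest of the sensors per length, with 53 and 224 reads in the overexpression-labelled libraries and 288 and 232 reads in wildtype. It was 0.205-fold of wildtype in library 1 (-1.88, limma adjusted p = 8.69e-05) and 0.726-fold in library 2 (-0.41, limma adjusted p = 0.459).

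Xbp1 was low to a like degree in both overexpression-labelled libraries. It had 975 and 1325 reads in the overexpression-labelled libraries and 2324 and 1570 reads in wildtype, or 63.8 and 65.1 CPM against 115 and 111 CPM. The wildtype libraries differed little (1.07-fold), and both overexpression-labelled libraries lay below them. It fell in library 1 (-0.95, SE 0.149, limma adjusted p = 1.08e-04) and in library 2 (-0.77, SE 0.151, limma adjusted p = 0.0264), where over all genes 0.682% fell in both comparisons. In library 2 the call was lost with no filter (limma adjusted p = 0.221), with log2 of reads plus 0.5 (0.0692), with totals without Rn45s (0.0751) and with recomputed size factors (0.0567). Plasmacytoid dendritic cell markers were low in library 1 (203 CPM) and in library 2 stood at 632 CPM, the level of wildtype library 2. Their part in the Xbp1 values was not tested.

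Integrated stress response genes were low as well, with median differences of -1.412 and -0.461 in overexpression-labelled libraries 1 and 2. In library 1, 5 of 6 fell (83.3%, against 34.4% of all tested genes), and in library 2, 1 of 6 fell (16.7%, against 0.888%). Chac1, which degrades glutathione and is raised by ATF4, had 11 and 71 reads in the overexpression-labelled libraries and 325 and 205 reads in wildtype. That came to 0.720 and 3.49 CPM in the overexpression-labelled libraries and 16.1 and 14.4 CPM in wildtype, so the groups were far apart and the wildtype libraries close together. It was 0.0425-fold of wildtype in library 1 (-3.15, SE 0.318, limma adjusted p = 1.97e-06) and 0.23-fold in library 2 (-1.76, SE 0.281, limma adjusted p = 0.00997). Of the members called in library 2, it alone kept its call under every alternative other than no filter (limma adjusted p = 0.212).

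Trib3, a pseudokinase raised by ATF4 and CHOP, had 13 and 56 reads in the overexpression-labelled libraries and 172 and 65 reads in wildtype. The wildtype libraries differed 1.91-fold, and the fall of 1.94 in library 1 passed (SE 0.405, limma adjusted p = 0.00104) while the difference of -0.89 in library 2 did not (limma adjusted p = 0.278). Asns, asparagine synthetase, had 9.36 and 13.8 CPM in the overexpression-labelled libraries and 22.3 and 19.7 CPM in wildtype (-1.18 in library 1, limma adjusted p = 0.00108; -0.55 in library 2, limma adjusted p = 0.275). Atf4 itself had 139 and 181 CPM in the overexpression-labelled libraries and 229 and 213 CPM in wildtype (-0.81 in library 1, limma adjusted p = 1.66e-04; -0.27 in library 2, limma adjusted p = 0.362). ATF4 is regulated mostly at translation, which these data do not measure. Ddit3, which encodes CHOP, had 12.0 and 27.9 CPM in the overexpression-labelled libraries and 37.9 and 36.2 CPM in wildtype (-1.65 in library 1, limma adjusted p = 1.73e-05; -0.38 in library 2, limma adjusted p = 0.363). Its exons overlap Mars on the other strand and a second gene entry with the same symbol, and whether reads were counted by strand is not given in the sources used here; Mars differed by -0.16 in library 1 (limma adjusted p = 0.465).

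Ppp1r15a (GADD34), which reverses PERK signalling by dephosphorylating eIF2 alpha, did not follow the others. It had 173 and 249 CPM in the overexpression-labelled libraries and 167 and 199 CPM in wildtype. Library 1 differed by -0.22 (95% interval -0.52 to 0.08, limma adjusted p = 0.187) and library 2 by 0.46 (SE 0.143, limma adjusted p = 0.139), which passed only by limma-voom (adjusted p = 0.0436). Monocyte markers summed to 80.2 and 342 CPM in overexpression-labelled libraries 1 and 2 and to 97.7 and 119 CPM in wildtype. In library 2, Lyz2 (199 CPM) and Ms4a6c (90.4 CPM) were the highest of these 8 markers. Of the 8, 2 rose there (25.0%, against 0.769% of all tested genes), 0 fell and 6 did not pass. Neutrophil markers were also highest in library 2. The part of both marker lists in the Ppp1r15a value was not tested.

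**Figure D4:**
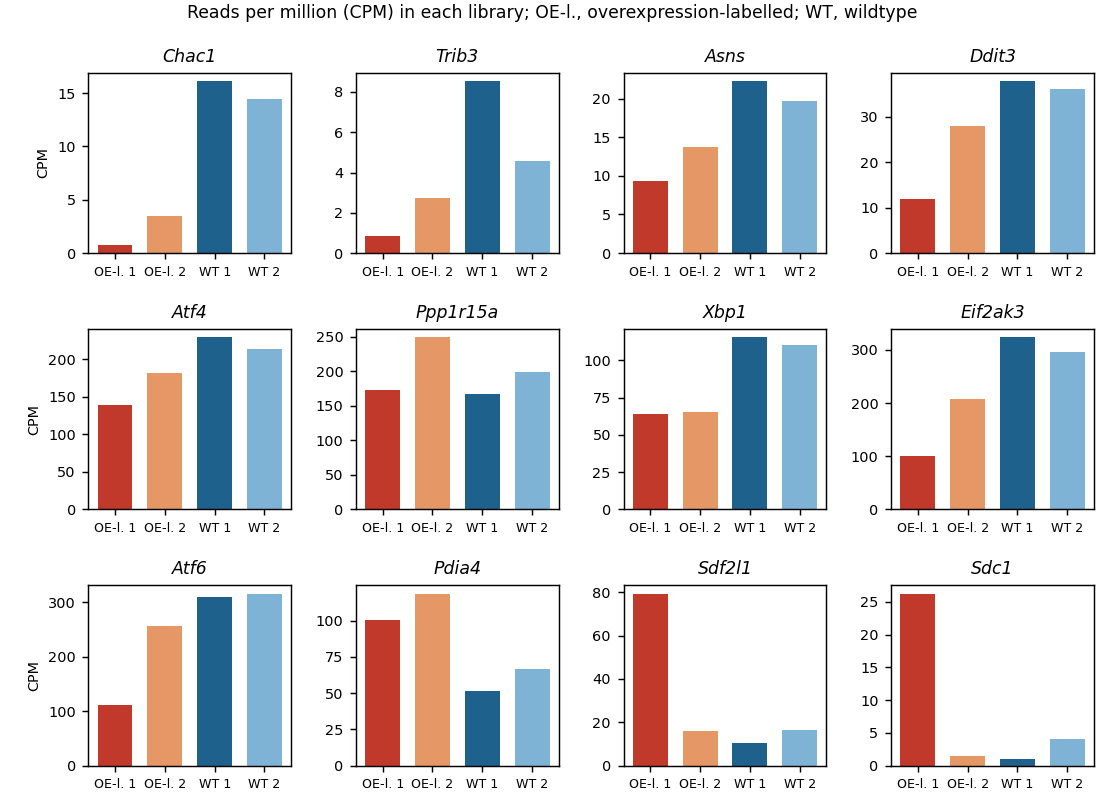
CPM of 12 members in each library, 1 bar per library and axes from 0; the red and orange bars are overexpression-labelled libraries 1 and 2 and the blue bars wildtype libraries 1 and 2. Chac1, Trib3, Asns, Ddit3, Atf4, Xbp1, Eif2ak3 and Atf6 were lower in both overexpression-labelled libraries, Pdia4 was higher in both, and Sdf2l1 and Sdc1 were high in library 1.

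ER-associated degradation, which returns misfolded proteins to the cytosol for the proteasome, had calls in both directions at shares near those of all genes. In overexpression-labelled library 1, 2 of 7 genes rose (28.6%, against 26.8% of all tested genes), 2 fell (28.6%, against 34.4%) and 3 did not pass (median 0.088), and in library 2 none of the 7 passed the limma test (0 at an unadjusted p under 0.05, and 0 by limma-voom). Syvn1, the ubiquitin ligase HRD1, had 269 and 64.4 CPM in the overexpression-labelled libraries and 88.2 and 77.8 CPM in wildtype, so library 1 alone was high (2.93-fold; 1.54, SE 0.148, limma adjusted p = 1.32e-06). Its exons overlap Mrpl49 on the other strand, which had 446 and 96 reads in the overexpression-labelled libraries and 118 and 94 in wildtype and also rose in library 1 (1.86, limma adjusted p = 7.52e-05); the overlap leaves the Syvn1 value uncertain. Sel1l, the partner of HRD1, had 64.7 and 47.3 CPM in the overexpression-labelled libraries and 53.6 and 56.1 CPM in wildtype, and differed by 0.09 in library 1 (95% interval -0.27 to 0.44). Herpud1, an adaptor of the HRD1 complex, had 168 and 92.1 CPM in the overexpression-labelled libraries and 87.5 and 98.9 CPM in wildtype (0.70 in library 1, limma adjusted p = 0.00109; 0.00 in library 2).

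Derlins and Edem1 went the other way or did not pass. Derl1, a channel-like membrane protein, had 46.9 and 105 CPM in the overexpression-labelled libraries and 119 and 112 CPM in wildtype, and fell by 1.42 in library 1 (SE 0.153, limma adjusted p = 3.77e-06). Edem1, which marks glycoproteins for disposal, had 184 and 232 CPM in the overexpression-labelled libraries and 258 and 294 CPM in wildtype. It fell by 0.72 in library 1. Derl2 had 278 and 230 reads in the overexpression-labelled libraries and 280 and 177 in wildtype, and its difference of 0.29 in library 1 did not pass (limma adjusted p = 0.334). Derl3, known from secretory cells, had 39 and 172 reads in the overexpression-labelled libraries and 133 and 56 in wildtype; library 1 lay below both wildtype libraries and library 2 above both, and neither difference passed (-0.84 and 0.60, limma adjusted p = 0.073 and 0.437).

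Of the 6 secretory and plasma cell genes, Sec61b, Mzb1 and Sdc1 rose and Prdm1 fell in overexpression-labelled library 1 (median difference 0.686). Of all tested genes, 26.8% rose there and 34.4% fell, so that 61.2% changed in either direction. None of the 6 passed in library 2 (1 at an unadjusted p under 0.05, and 0 by limma-voom). Of all tested genes, 0.769% rose and 0.888% fell in library 2. Sec61b, a subunit of the channel through which proteins enter the ER, had 64.98 and 23.7 CPM in the overexpression-labelled libraries and 20.4 and 19.8 CPM in wildtype (2.92-fold in library 1; 1.48, SE 0.199, limma adjusted p = 2.91e-05). Mzb1, an ER protein of B and plasma cells that helps GRP94 and antibody assembly, had 163 and 85.3 CPM in the overexpression-labelled libraries and 58.4 and 69.5 CPM in wildtype. Both overexpression-labelled libraries exceeded wildtype, and library 1 passed (1.19, limma adjusted p = 2.52e-05) while library 2 did not (0.43, limma adjusted p = 0.233). Sec11c, a catalytic subunit of signal peptidase, had 54.1 and 45.0 CPM in the overexpression-labelled libraries and 41.7 and 44.2 CPM in wildtype, a difference of 0.18 in library 1 (limma adjusted p = 0.388).

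Sdc1 (CD138), the surface proteoglycan of plasma cells that pro-B and pre-B cells can also carry, had 401 and 31 reads in the overexpression-labelled libraries and 21 and 58 reads in wildtype. Its normalised reads in library 1 were 9.31-fold those of wildtype (2.81, SE 0.441, limma adjusted p = 1.08e-04), and library 2 lay between the wildtype libraries. Prdm1 (Blimp-1) had 24.8 and 74.7 CPM in the overexpression-labelled libraries and 52.3 and 65.2 CPM in wildtype, lower in library 1 (-1.33, SE 0.189, limma adjusted p = 4.87e-05) and not passed in library 2 (0.36, limma adjusted p = 0.34). Fkbp11, a prolyl isomerase of secretory cells, was near the limit of detection, with 7 and 36 reads in the overexpression-labelled libraries and 21 reads in each wildtype library. Of other plasma cell markers, Jchain had 3.27 and 188 CPM in the overexpression-labelled libraries and 124 and 141 CPM in wildtype. Ell2 had 20.7 and 148 CPM against 197 and 185 CPM. Slamf7 went the other way in library 1, with 545.5 and 257 CPM against 256 and 317 CPM. Irf4 had 780 and 1015 CPM against 823 and 998 CPM, and Bhlha15 3.73 and 4.91 CPM against 6.01 and 4.51 CPM. Tnfrsf17 (BCMA) had 1 read in all 4 libraries. The markers thus went both ways in library 1, which their sum does not show. The 8 plasma cell markers summed to 1404 and 1689 CPM in the overexpression-labelled libraries and to 1460 and 1714 CPM in wildtype, mostly Irf4 and Slamf7. Their part in the Sdc1 and Prdm1 values was not tested.

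Set beside the promoter sequences, carriers of each element had the following calls, with no test of the difference between them. In overexpression-labelled library 1, where 26.8% of all tested genes rose and 34.4% fell, 7 of the 9 carriers of the ER stress element rose and 0 fell, with Calr and Derl3 not passed (median difference 0.758). Of these 9 carriers, 7 are among the chaperones described above. Of the 4 carriers of the ATF4 element, Chac1, Trib3 and Asns fell and Herpud1, which also holds the second ER stress element, rose (median -1.56). Among the 17 members with a window and none of the 4 motifs, 5 rose and 8 fell, and 4 did not pass (median -0.693). In library 2 the medians were 0.176 for carriers of the ER stress element and -0.72 for carriers of the ATF4 element, with Chac1 the only carrier that passed. Sdf2l1 and Pdia4 rose in library 1 without a match in their windows, and Dnajb9, Edem1 and Xbp1 fell without one.

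**Figure D5:**
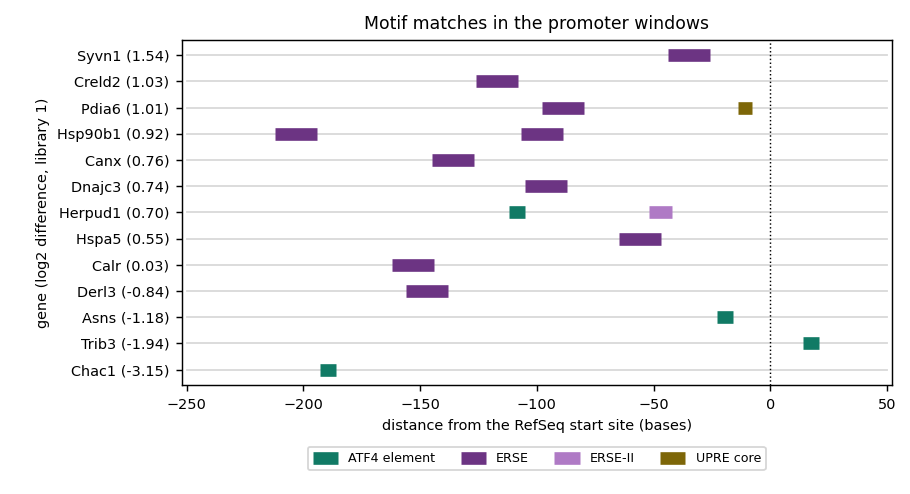
Position of the motif matches in the promoter windows of the 13 members that hold one, in bases from the RefSeq start site (dotted line), ordered by the log2 difference of overexpression-labelled library 1 from wildtype, which stands beside each name. Carriers of the ER stress element (ERSE, purple) lie at or above Derl3, and the carriers of the ATF4 element alone (green) lie at the bottom.

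The wildtype libraries themselves differed in the chaperone genes. All 13 were lower in wildtype library 1 than in wildtype library 2, at 0.617-fold (Creld2) to 0.933-fold (Dnajb9), while 52.3% of all tested genes were lower there. Of the 6 integrated stress response genes, 5 were higher in wildtype library 1, and Ppp1r15a, at 0.86-fold, was not. Wildtype library 1 is also the library without Xist, so sex and library cannot be told apart in this difference. In overexpression-labelled library 2, chaperones lay above both wildtype libraries in 4 of 13 cases, below both in 3 and between them in 6. The matching shares of all tested genes were not counted, so this split is not read as a trait of the chaperones.

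Other genes of the pathway, from lists of its other known members, are set against the 26.8% of all tested genes that rose and the 34.4% that fell in overexpression-labelled library 1. Of 21 other ER folding genes, 7 rose (33.3%) and 6 fell (28.6%), shares near those of all genes (median 0.167). Dnajb11, a BiP co-chaperone, had 208 and 62.1 CPM in the overexpression-labelled libraries and 51.1 and 54.8 CPM in wildtype (1.80 in library 1, limma adjusted p = 3.68e-07). Ero1lb, an oxidase that makes disulfides, went the other way, with 24.7 and 343 CPM in the overexpression-labelled libraries and 421 and 479 CPM in wildtype (-4.24 in library 1, limma adjusted p = 3.76e-11). Cnpy2 (1.96) and Hspa13 (1.66) were the other large differences of that list. Of 31 translocation and glycosylation genes 13 rose (41.9%) and 5 fell (16.1%; median 0.425), with Srp14 (1.60), Spcs3 (1.52) and Ddost (1.14) higher and the oligosaccharyltransferase subunit Stt3b lower (-1.37). Of 21 genes of transport between ER and Golgi 7 rose (33.3%) and 4 fell (19.0%; median 0.03), with Kdelr2 (1.81), a receptor that returns ER proteins, Lman1 (1.62) and Copb2 (1.06) higher and the coat protein Sec24a lower (-1.74). In the list of 22 other degradation genes 3 rose (13.6%) and 9 fell (40.9%; median -0.374); the ubiquitin ligase Rnf5 rose by 2.69, and Selk (-1.5), Ube2j2 (-1.46) and Herpud2 (-1.29) fell. In the list of 10 other sensors and stress factors the median difference was -0.413, with Creb3 (-1.16) and Crebzf (-1.05) called lower. Map3k5 (-0.56) and Traf2 (-0.64) passed as well, but Traf2 lost its call with recomputed size factors, both total scalings, log2 of reads plus 0.5, limma-voom, a robust prior and no filter, and Map3k5 with totals without Rn45s and no filter. With no filter, 18 of the 28 named genes of these lists lost their calls in library 1, Cnpy2, Hspa13 and Rnf5 among them.

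Within amino acid metabolism, targets and partners of ATF4 did not move as one in overexpression-labelled library 1. The median difference of 23 other integrated stress response genes was 0.556 there, against -0.151 for all tested genes. Psat1, an enzyme of serine synthesis, had 2205 and 379 reads in the overexpression-labelled libraries and 412 and 256 reads in wildtype (6.77-fold in library 1; 2.67, limma adjusted p = 6.56e-08), opposite to Asns, Chac1 and Trib3. Sesn2, a stress-induced inhibitor of mTORC1, had 18 and 542 reads in the overexpression-labelled libraries and 631 and 425 reads in wildtype (0.0347-fold in library 1; -3.77, limma adjusted p = 5.89e-08). Slc7a1, a cationic amino acid transporter, fell by 2.39 and Gpt2, an alanine transaminase, by 2.26. These genes were named for the size of their difference and do not stand for the list, whose median was positive. The 12 aminoacyl-tRNA synthetases, which charge tRNAs and include known ATF4 targets, had a median difference of -0.152 in library 1, near that of all tested genes. Cars (-0.92), Sars (-1.06), Aars (-0.71) and Lars (0.80) had the largest differences.

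In overexpression-labelled library 2, where 0.769% of all tested genes rose and 0.888% fell, called genes of these added lists were mostly lower. Aars, Cars and Gars of the 12 synthetases fell (25.0%). Slc7a5 of the 23 other integrated stress response genes fell, and Map3k5 of the other sensors and stress factors rose. Cars had 21.1 and 18.9 CPM in the overexpression-labelled libraries and 36.7 and 38.2 CPM in wildtype, with differences of -0.92 in both libraries (limma adjusted p = 0.00124 and 0.0393). Aars had 65 and 52.8 CPM in the overexpression-labelled libraries and 103 and 91.5 CPM in wildtype (-0.71 and -0.84, limma adjusted p = 0.00168 and 0.0246). Gars had 103 and 70.2 CPM in the overexpression-labelled libraries and 129 and 110 CPM in wildtype (-0.36 and -0.74, limma adjusted p = 0.0572 and 0.0414). Slc7a5, a transporter of large neutral amino acids, had 97.7 and 41.3 CPM in the overexpression-labelled libraries and 91.3 and 66.8 CPM in wildtype, so only library 2 was low (-0.88, limma adjusted p = 0.0487). All 5 of these calls in library 2 were lost with no filter, log2 of reads plus 0.5, totals without Rn45s and recomputed size factors, with limma adjusted p-values from 0.0567 to 0.471 there. With a robust prior, Map3k5 and Slc7a5 were lost as well (limma adjusted p = 0.0504 and 0.0509). Of the 12 synthetases, 7 were lower in both overexpression-labelled libraries than in both wildtype libraries on the deposited scale (58.3%, against 23.0% of all tested genes) and 0 higher (against 19.6%).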

How the data were processed

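STAR, HTSeq and DESeq2 and the build mm10 are named in the submitters' processing notes; versions, settings, strand and annotation are not given in the sources used here. What the authors deposited is log2 values, 1 per gene and library, with a floor of 4.949 in all 4 libraries. They have the form of a variance stabilizing transformation, whose inverse gave whole reads for 100% of values within 0.01; reads, CPM and normalised reads in the text are these. The header of overexpression-labelled library 1 differs from its sample's title in 1 digit, and the misspelled genotype of wildtype library 2 was read as wildtype. The filter asked for 15 reads over all libraries and, in 2 or more of them, for the CPM that 10 reads have in a library of median size. Because the values are not counts, each comparison was fitted to the deposited values with the trend method of limma 3.58.1 in R 4.3.3, two-sided, with Benjamini-Hochberg adjustment over 12617 genes and a threshold of 0.05, no covariate, and differences as overexpression-labelled minus wildtype. The scale understates changes of genes with few reads. RPKM used exon lengths of GENCODE M21, which may not be the authors' annotation. There, exons of Pdia3, Pdia6, Manf, Derl2, Ppp1r15a and Mzb1 also overlap other protein-coding genes, so their values share the limit given for Ddit3 and Syvn1. Of these partners, Catsper2 (Pdia3) differed by -3.35 in overexpression-labelled library 1, Tulp2 (Ppp1r15a) by -2.07 and Mis12 (Derl2) by 1.70. Rbm15b (Manf) differed by 0.31 there and Spata24 (Mzb1) by -0.15. Fits were tested on simulated data. Members, lists, motifs and the rule for named genes (all members; of each added list up to 4 called genes with the largest difference and a mean of at least 5 CPM) were chosen with earlier results of these data known. Alternatives were other scalings, log2 of normalised reads plus 0.5, other filters, limma-voom, a robust prior and leaving out each library.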

Additional observations from a re-analysis of the deposited data

How the results depend on the processing

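No paired analysis was possible because the labels carry no replicate numbers; those used here only name the libraries. In the comparison of both groups, the members called higher and lower and the genes called were 0 under every scaling, filter and test tried; leaving out each library gave 0 to 7721 genes, 0 to 16 members higher and 0 to 13 lower, with the highest counts without overexpression-labelled library 2, 209 genes with 1 and 2 members without overexpression-labelled library 1, and 1 gene without wildtype library 2. In overexpression-labelled library 1, the 29 members kept their direction under all alternatives, and 2 of them, Sdc1 and Trib3, were not tested with 5 CPM in 2 libraries; with no filter 2642 genes, 1 member higher and 5 lower were called. In overexpression-labelled library 2, recomputed size factors gave 75 genes and 1 member lower, library totals without Rn45s 58 genes with 0 higher and 1 lower, log2 of reads plus 0.5 gave 56 genes with 0 higher and 1 lower, no filter gave 0 genes and 0 members in either direction (4 members at an unadjusted p under 0.05), and limma-voom gave 614 genes (371 higher and 243 lower, against 97 and 112) with 2 members higher. No called difference of a named gene changed sign under the alternatives run. Leaving out a wildtype library from a single-library comparison leaves 1 library against 1, a value with no test. Depth gives the least precise values for Fkbp11, Chac1, Trib3, Derl3, Ern1 and Sdc1, which had under 100 reads in at least 1 library.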
